A study of Rattus norvegicus with 12 samples.

Results

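Oxidative phosphorylation is the set of 5 protein complexes in the inner mitochondrial membrane that pass electrons from food to oxygen and use the proton gradient this builds to make ATP. Complexes I, III, IV and V are assembled from subunits of 2 genomes: the mitochondrial DNA codes a few core subunits of each, the nucleus codes the others, and complex II is coded by the nucleus alone. Liver is rich in mitochondria, and fatty liver disease is a setting in which this machinery is often studied. The transcripts of 101 of its genes, of 16558 genes in the joined tables, were followed in rat liver RNA-seq. They were taken by gene symbol: Mt- (13 genes), Nduf, Sdha to Sdhd, Uqcr, Cox4 to Cox8 and Atp5 (88 nuclear-coded genes).

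The 12 libraries came from livers of Sprague Dawley rats, 3 per group. Normal rats received saline, model rats a high-fat diet for 8 weeks to induce non-alcoholic fatty liver disease, and rats of 2 arms the flavonoid glycoside didymin, at a low or a high dose, on top of that diet. The arms are called D and G after the letters in the tables, because nothing in the labels pairs a letter with a dose. The animals' age and sex, the amounts of didymin and any pooling of animals have no entry in the sources read, and nothing says that libraries of a group came from separate animals, so the p-values measure only the spread between these libraries. Libraries carry the names in the table headers (N.1 to N.3, M.5, M.6, M2.1, D.1, D.4, D.7, G.1, G.3 and G.4). Where a liver is named below, 1 library is meant, not a separate animal.

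Total counts ranged from 12469914 to 15521648 per library, but the counts left for nuclear-coded genes differed more. G.3 kept 4869054 of them and M.6 7173229, while the other 10 libraries kept 10887482 to 14761817. G.3 and M.6 stood apart in cell type markers as well. The summed level of 8 hepatocyte markers was 56410 CPM (counts-per-million of nuclear-coded counts) in G.3 and 92730 in M.6, while no other library was outside 180700 to 236100, and all 8 were detected. Alb was the largest part of the sum, at 29680 CPM in G.3 and 57530 in M.6. Cyp2e1 was not low there, at 2931 and 2653 CPM, against 2592 in N.1 and 2704 in N.2. For each other marker, G.3 and M.6 lay below all other libraries. The 3 erythroid markers summed to 1774 CPM in G.3, 1562 in D.1 and 1522 in M.6, with 165 to 753 elsewhere. The 6 lymphocyte markers summed to 32.4 CPM in G.3 against 3.99 to 16.8, and 3 skeletal muscle markers to 11.04 against 0.624 to 4.11, with no value for Ckm and Myh4. In bulk tissue, fewer cells of a type and less RNA per cell cannot be told apart.

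Expression is given in CPM of nuclear-coded counts, with scaling by the trimmed mean of M values (TMM), so that a library full of mitochondrial transcripts does not by construction look poor in all others. Of the 101 members, 95 had enough counts to be tested: all 13 Mt- genes and 82 nuclear-coded ones. The nuclear-coded subunits tested number 72: 35 of complex I, 4 of complex II, 8 of complex III, 11 of complex IV and 14 of complex V. Ndufa4 is kept with complex I by its symbol, although it is now counted in complex IV. The other 10 nuclear-coded genes tested are 7 complex I assembly factors (Ndufaf1 to Ndufaf7) and 3 genes that share a symbol stem but are not counted as subunits here (Ndufa10l1, Atp5s and Atp5sl). Counts are not set against each other between genes as levels, since no transcript lengths were used.

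Nuclear-coded subunits are known targets of the nuclear respiratory factor NRF1, of ETS-family factors such as GABP and of YY1, so their promoter windows are shown before the values. All 88 nuclear-coded members matched a RefSeq gene (17 through a synonym), and 64 of the 72 tested subunits had a RefSeq window in the GRCr8 build, from 250 bases before to 50 after the annotated start. The NRF1 site GCGCATGCGC, a palindrome, lay in 6.25% of these windows, against 1.9% of the windows of all genes tested and 0.932% of all windows of that length. The ETS core CCGGAAG, on either strand, lay in 29.7% against 17.5% and 9.22%, and the YY1 core AAGATGGC, on either strand, in 21.9% against 5.53% and 3.44%. The ETS core ends and the YY1 core begins with AAG, so sites of both can share these letters. A match describes the letters and is not evidence of binding. The stretches around the NRF1 site of the 4 subunits that hold it are printed 5′ to 3′ on the gene's strand, upstream of the start, with 1 site in capitals, because they are the tested subunits with the whole palindrome. Ndufa11 holds another match that overlaps the one in capitals, and the assembly factors Ndufaf4 and Ndufaf5 hold the palindrome too.
Ndufa11, complex I, chr9:1637493-1637562, + strand: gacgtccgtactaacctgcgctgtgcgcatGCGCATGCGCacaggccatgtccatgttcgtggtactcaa
Atp5g2 (now Atp5mc2), complex V, chr7:135678235-135678304, - strand: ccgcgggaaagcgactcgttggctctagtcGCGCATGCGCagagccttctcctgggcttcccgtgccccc
Atp5i (now Atp5me), complex V, chr14:1464754-1464823, + strand: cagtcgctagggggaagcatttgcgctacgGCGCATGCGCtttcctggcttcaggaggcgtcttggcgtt
Atp5o (now Atp5po), complex V, chr11:44657503-44657572, - strand: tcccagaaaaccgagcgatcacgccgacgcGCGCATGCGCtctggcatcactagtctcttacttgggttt

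The 13 mitochondrially coded transcripts varied far more between livers than the nuclear-coded subunits. The ranges of their mean log2 CPM overlapped between all 4 groups. From the lowest to the highest library, the Mt- genes spanned 4.22 to 6.80 on the log2 CPM scale (median 4.87), against 0.57 to 4.10 for the 72 nuclear-coded subunits (median 1.62) and a median of 1.70 for all 12393 nuclear-coded genes tested. All 13 were highest in G.3, and 12 of 13 were second highest in M.6, with Mt-atp8 second highest in N.2. N.2 held the lowest value of 9 of them, and N.1 and M2.1 of 2 each.

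**Figure D1:**
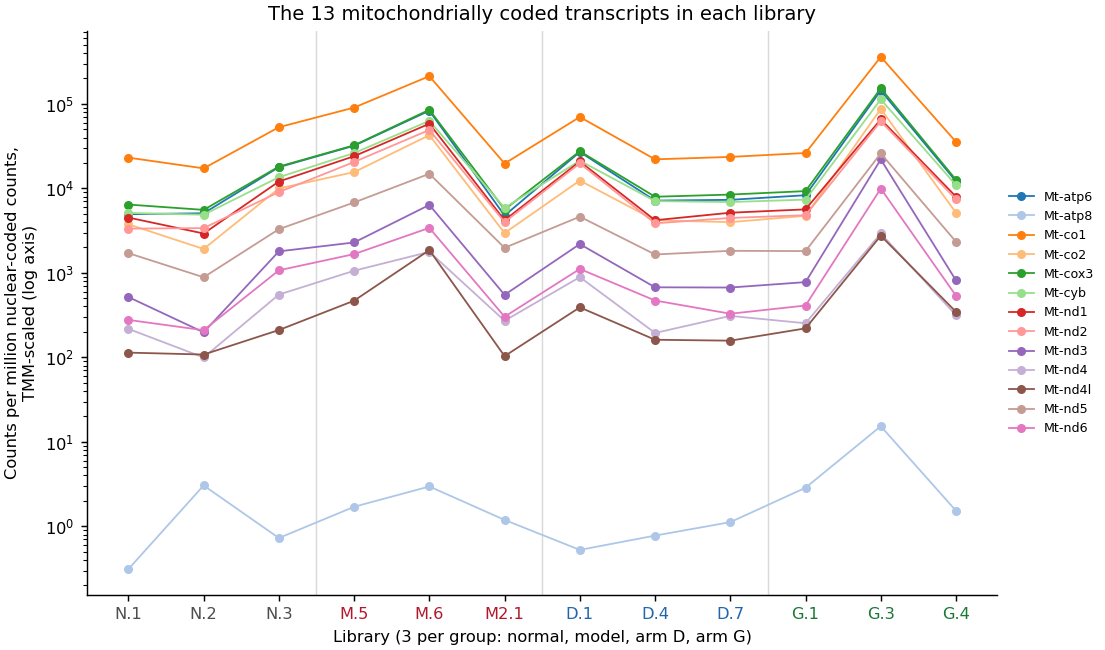
Level of each of the 13 Mt- transcripts in the 12 libraries, as CPM of nuclear-coded counts (TMM-scaled) on a log axis; each point is 1 library and lines only join the points of 1 gene. G.3 is the highest library for all 13, and Mt-atp8, with few counts, lies apart from the other 12.

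Mt-co1 codes the catalytic subunit of cytochrome c oxidase, complex IV. Its level was 23120, 17250 and 52950 CPM in N.1, N.2 and N.3 (mean 31110 ± 19140, SD, n = 3). In the model it was 90460, 212800 and 19680 CPM in M.5, M.6 and M2.1 (107600 ± 97670, n = 3), so that M2.1 lay inside the range of the normal livers and the groups overlapped. Arm D had 69970 CPM in D.1 but 22060 and 23580 in the other two (38540 ± 27230, n = 3). In arm G it was 360200 CPM in G.3 and 26220 and 35540 in G.1 and G.4 (140700 ± 190200, n = 3). Every group thus held 1 or 2 livers well above its lowest one: N.3 among the normal, M.5 and M.6 in the model, D.1 in arm D and G.3 in arm G.

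Mt-cyb, the cytochrome b of complex III and its only mitochondrially coded subunit, was high in the same livers. It was at 5126, 4877 and 13560 CPM in the normal livers, at 26200, 62980 and 5879 in M.5, M.6 and M2.1, at 21290, 7069 and 6889 in D.1, D.4 and D.7, and at 7365, 113200 and 10920 in G.1, G.3 and G.4. Among the 7 complex I genes, Mt-nd4l was at 114, 108 and 211 CPM in the normal livers and at 469, 1860 and 103 in M.5, M.6 and M2.1. It was at 391, 162 and 158 CPM in D.1, D.4 and D.7 and at 220, 2754 and 346 in G.1, G.3 and G.4. Here all 3 arm G livers lay above all 3 normal livers, while the model and normal groups overlapped through M2.1. Mt-nd3 had the widest span of the 13, from 198 CPM in N.2 to 22010 in G.3, and Mt-nd2 the narrowest, from 3339 in N.1 to 62210 in G.3.

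As a share of all counts of a library, the Mt- genes made up 4.63%, 3.85% and 11.2% in the normal livers and 18.8%, 44.1% and 4.90% in M.5, M.6 and M2.1. The arm D livers had 16.0% in D.1, 5.62% in D.4 and 5.88% in D.7, and the arm G livers 6.07%, 61.0% and 7.88% in G.1, G.3 and G.4.

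Within the mitochondrial counts, the make-up was far steadier than the total. These shares are not per length, so they describe counts and not transcript numbers. Mt-co1 took 33.7% to 42.8% of the Mt- counts in every library, with 40.4% ± 2.5 in the normal group, 36.3% ± 2.5 in the model, 36.0% ± 2.0 in arm D and 36.3% ± 1.7 in arm G (SD, n = 3 each). The 3 normal values, 42.8%, 40.6% and 37.7%, overlapped with the 39.1% of M2.1. Mt-cox3 followed with 11.2% to 14.6%, Mt-atp6 with 9.16% to 13.7% and Mt-cyb with 9.48% to 11.9%. G.3, the library with the highest total, also had the highest shares of Mt-co2 (8.32%, median of the 12 libraries 6.54%), Mt-nd3 (2.099%, median 1.06%), Mt-nd6 (0.948%, median 0.573%), Mt-cox3 and Mt-atp6, and the lowest shares of Mt-nd1 (6.25%, median 8.32%) and Mt-nd2 (5.93%, median 7.41%). M.6, second in total, had 1.02% for Mt-nd3 and 9.36% for Mt-nd1.

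**Figure D2:**
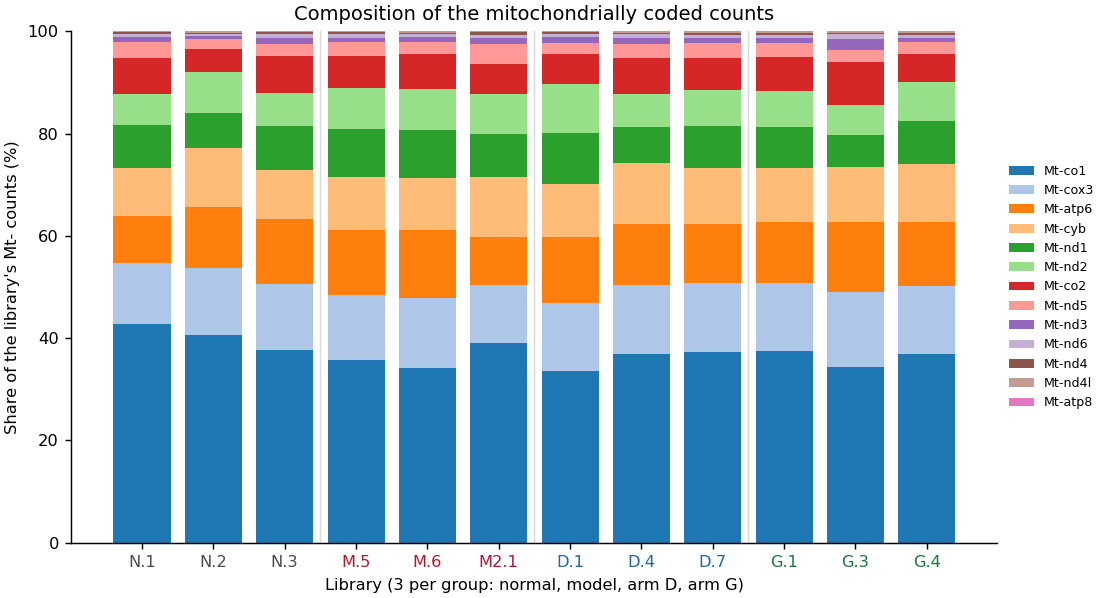
Share of each Mt- gene in the Mt- counts of each library, in percent; each stacked bar is 1 library and sums to 100. Mt-co1 takes 33.7% to 42.8% in all 12, and G.3 differs from the others mainly in Mt-co2, Mt-nd3, Mt-nd1 and Mt-nd2.

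Some of these genes overlap on the mitochondrial genome: Mt-atp8 with Mt-atp6, and Mt-nd4l with Mt-nd4. Mt-nd6 lies on the opposite strand. Whether the counting used strand, and how it treated reads shared by overlapping genes, is not given in the sources used here, so the split between these partners is uncertain. Mt-atp8 had only 4 to 111 counts per library, with 111 in G.3, and Mt-nd4 took 0.235% to 0.539% of the Mt- counts. Copies of mitochondrial sequence in the nuclear genome and pseudogenes of nuclear-coded subunits can also share reads with the genes named here.

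The nuclear-coded subunits had another order of libraries. They were high in M.5 and D.1, not in G.3 and M.6. The mean log2 CPM of the 72 subunits was 6.27, 6.58 and 7.04 in N.1, N.2 and N.3 (6.63 ± 0.39, SD, n = 3), and 7.37, 6.82 and 6.33 in M.5, M.6 and M2.1 (6.84 ± 0.52). The arm D livers had 7.34 (D.1), 6.63 (D.4) and 6.60 (D.7), a mean of 6.86 ± 0.42, and the arm G livers 6.86, 6.31 and 6.88 in G.1, G.3 and G.4 (6.68 ± 0.33). All 4 groups overlapped. N.3, M.5 and D.1 were the highest library of their group for the nuclear-coded mean, and N.3 and D.1 were also the highest of theirs for the Mt- mean. In the model and in arm G, the highest Mt- library (M.6, G.3) was not the highest nuclear-coded one.

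M.5 held the highest value for 37 of the 72 subunits (51.4%, against 7.58% of all nuclear-coded genes tested) and D.1 for 25 (34.7%, against 9.86%). G.3 held the lowest value for 31 (43.1%, against 22.5%), M2.1 for 21 (29.2%, against 11.2%) and N.1 for 17 (23.6%, against 9.38%). On plain nuclear-coded counts, without TMM, M.6 and G.3 moved up: the highest library was then M.6 for 22 subunits, D.1 for 21 and M.5 for 15, and N.1 was lowest for 52. On plain counts of all genes G.3 was lowest for 54 of the 72. The place of M.6 and G.3 among the nuclear-coded subunits therefore depends on the scale, and the high values of M.5 and D.1 were seen on all 3 scales, with means of 7.24 and 7.22 on plain nuclear-coded counts and 6.94 and 6.96 on counts of all genes. Genes of another kind moved with them: the mean log2 CPM of 73 cytosolic ribosomal protein genes, a list added after values were seen, was 6.77 in M.5 and 6.78 in D.1, against 5.30 to 6.54 in the other 10 libraries. Its part in the result was not tested.

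**Figure D3:**
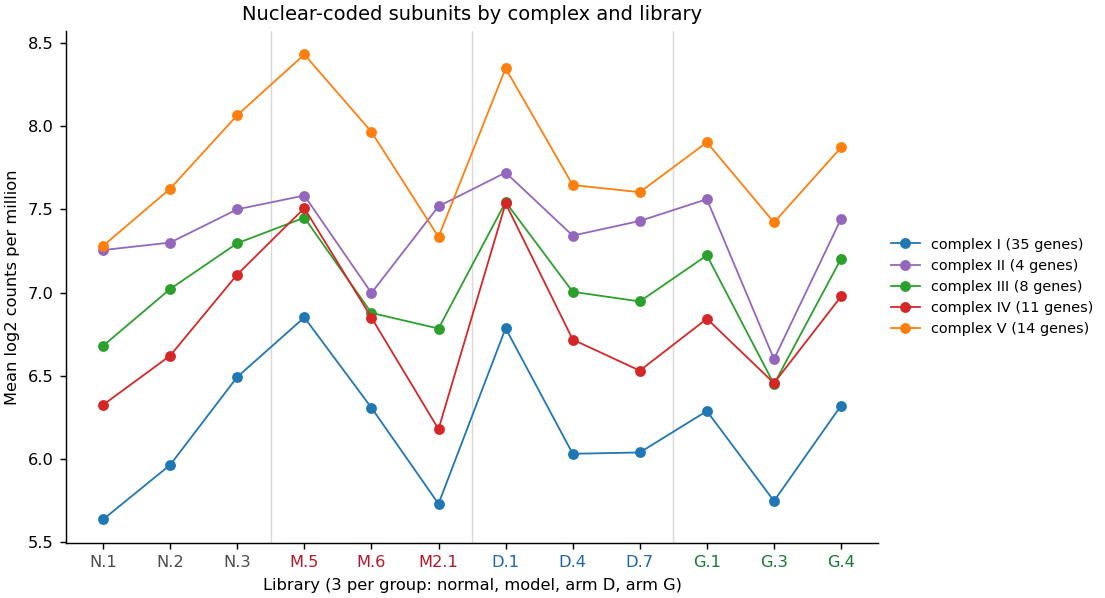
Mean log2 CPM of the tested nuclear-coded subunits of each complex in the 12 libraries; each point is 1 complex in 1 library and lines only join the points of 1 complex. M.5 and D.1 are the highest 2 libraries in each of the 5 complexes, and complexes II and III are lowest in G.3.

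Some subunits had their highest value elsewhere, and those given here were named after their values were seen. Sdha, Ndufs1, Uqcrc2 and Atp5a1 were highest in M2.1, the model liver with the lowest Mt- level, and lowest in G.3. These code large subunits of 4 different complexes: the flavoprotein of complex II, the largest iron-sulfur subunit of complex I, a core protein of complex III and the alpha subunit of the ATP synthase head. Uqcrc2 was at 107, 91.5 and 65.3 CPM in the normal livers, 32.0, 32.3 and 114 in M.5, M.6 and M2.1, 51.4, 84.9 and 84.4 in D.1, D.4 and D.7, and 93.9, 25.7 and 79.3 in G.1, G.3 and G.4. In each group its lowest liver was the one with the most Mt- counts, except in the model, where M.5 and M.6 differed by less than 1 CPM. Uqcrfs1 was highest in N.3, Atp5i in M.6, Ndufb8 in G.1, and Ndufb3 and Cox7a2 in G.3.

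In complex I, the mean over 35 nuclear-coded subunits ran from 5.64 (N.1) to 6.85 (M.5). Ndufv1, which carries the flavin that accepts electrons from NADH, was the steadiest member, between 107 and 159 CPM in all 12 livers. The 7 assembly factors, which build the complex but are not part of it, spanned 3.04 (G.3) to 3.62 (D.1). On plain nuclear-coded counts, without TMM, G.3 was instead their highest library, at 3.609, so its place depends on the scale.

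Complex II has no mitochondrially coded subunit. Its succinate-oxidising flavoprotein Sdha was at 230, 237 and 186 CPM in the normal livers (218 ± 27, SD, n = 3), 172, 108 and 323 in M.5, M.6 and M2.1 (201 ± 110), 195, 217 and 191 in D.1, D.4 and D.7 (201 ± 14), and 239, 89.0 and 172 in G.1, G.3 and G.4 (167 ± 75). Its iron-sulfur partner Sdhb was at 129, 146 and 189 CPM in the normal livers, 259, 170 and 164 in M.5, M.6 and M2.1, 220, 149 and 165 in D.1, D.4 and D.7, and 187, 140 and 171 in G.1, G.3 and G.4. The 2 catalytic subunits of 1 complex thus had different orders: M2.1 was the highest library for Sdha and the lowest of the model for Sdhb. The membrane anchors Sdhc and Sdhd were lowest in G.3 (69.0 and 103 CPM) and highest in D.1 (192 and 241 CPM).

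In complex III the mean over 8 nuclear-coded subunits ran from 6.45 (G.3) to 7.55 (D.1), and in complex V over 14 subunits from 7.28 (N.1) to 8.43 (M.5). The 5 subunits of the catalytic head of complex V (F1) ran from 8.06 (G.3) to 9.03 (M.5), and the 9 of its membrane part and stalk from 6.75 (N.1) to 8.10 (M.5). On plain nuclear-coded counts N.1, not G.3, was lowest for complex III (6.52) and for F1 (8.08). The catalytic beta subunit Atp5b was between 803 CPM (G.3) and 1557 CPM (M.5), and the 3 genes for the ring subunit c, Atp5g1, Atp5g2 and Atp5g3, all peaked in D.1, at 178, 370 and 412 CPM.

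Complex IV has tissue isoforms. Cox4i1, the common form of subunit 4, was at 341 to 838 CPM, and Cox6a1, Cox6b1 and Cox8a were at 72.2 to 340, 86.9 to 261 and 93.5 to 262 CPM. Their counterparts were below the filter on low counts, as did Ndufa4l2. Cox4i2, the isoform known from lung and low oxygen, had 79 counts in the 12 libraries, of which 22 were in G.3. Cox6b2, known from testis, had 51 counts with 17 in G.3. Cox8b, a heart and muscle form, had 22 counts with 10 in G.3, and Ndufa4l2, the hypoxia-linked relative of Ndufa4, had 40 with 22 in G.3. For each of these 4, G.3 was the highest of the 12 libraries although it had the fewest nuclear-coded counts. The levels there were 3.04, 2.35, 1.38 and 3.04 CPM. G.3 also held the highest value for 23.0% of all nuclear-coded genes tested, the largest share of any library, so such a peak is not particular to these isoforms. Exact 95% Poisson intervals, which cover counting error only, were 1.90 to 4.595 CPM for Cox4i2 and for Ndufa4l2 in G.3, and the highest other libraries were at 1.40 CPM (Cox4i2, D.1, interval 0.802 to 2.28) and 0.878 CPM (Ndufa4l2, M.6, interval 0.379 to 1.73). The intervals of G.3 and of the next library overlapped for Cox4i2 (D.1), Cox6b2 (M.6) and Cox8b (M.6), and not for Ndufa4l2. Skeletal muscle and lymphocyte markers were also highest in G.3, as given above, and their part in this was not tested.

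Cox6a2, the muscle form of subunit 6a, had 1 count in all, in N.2. Atp5f1, the older symbol of the stalk subunit b of complex V, had 10 counts in all, and Cox7a2, the liver form of subunit 7a, was at 0.397 to 9.52 CPM with G.3 highest and M2.1 lowest. Both symbols stand for regular subunits, and related copies or the gene models used may have taken their reads, so these low values are uncertain.

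The 2 genomes were then compared complex by complex. The mean log2 CPM of the Mt- genes minus that of the nuclear-coded subunits of complexes I, III, IV and V was 3.70, 3.11 and 4.29 in N.1, N.2 and N.3. It was 4.83, 6.63 and 3.78 in M.5, M.6 and M2.1, 4.48, 3.63 and 3.77 in D.1, D.4 and D.7, and 3.73, 8.11 and 4.02 in G.1, G.3 and G.4. M.6 and G.3 were the 2 highest, and 8 of the other 10 libraries lay between 3.11 and 4.29, in all 4 groups. The group means overlapped within their spread, with complex I at 3.69 ± 0.77 in normal, 5.17 ± 1.46 in the model, 4.04 ± 0.57 in arm D and 5.28 ± 2.49 in arm G (SD, n = 3). Complex III was at 5.77 ± 0.61, 7.34 ± 1.67, 6.14 ± 0.60 and 7.39 ± 2.57, and complex IV at 6.60 ± 0.71, 7.94 ± 1.56, 6.78 ± 0.44 and 8.04 ± 2.48, in the same order. Complex V was taken with Mt-atp6 alone, because of the few counts of Mt-atp8, and was at 5.24 ± 0.72, 6.60 ± 1.75, 5.59 ± 0.68 and 6.84 ± 2.5. Over these complexes together the mean of arm G was 3.87 without G.3, and that of the model 4.30 without M.6. The difference is free of the library scale, which cancels within a library, and all 4 complexes had G.3 highest, M.6 second and N.2 lowest.

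**Figure D4:**
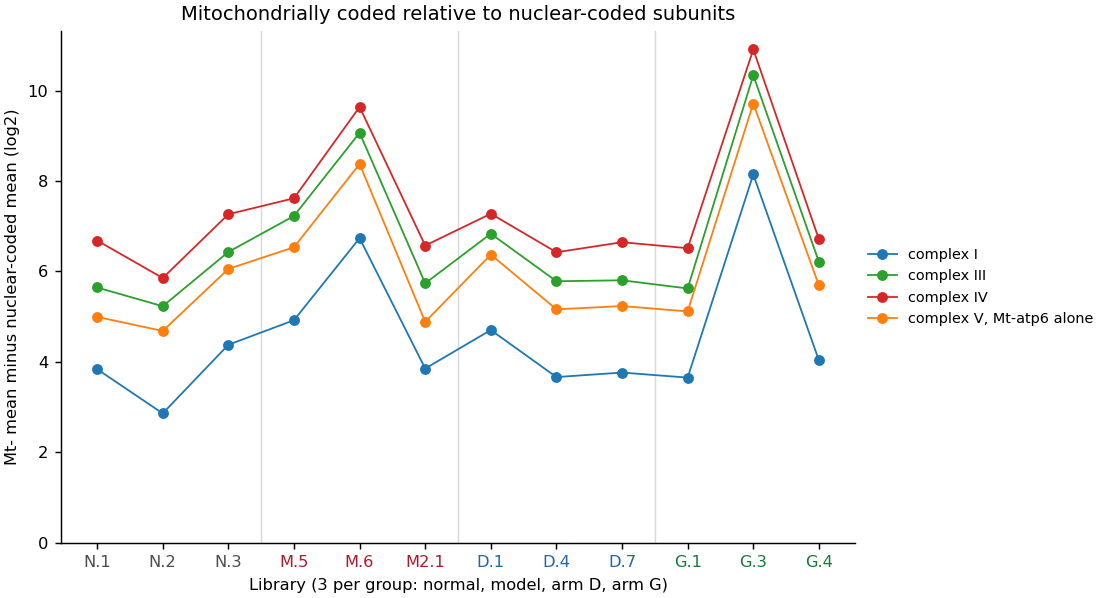
Mean log2 CPM of the Mt- genes minus that of the nuclear-coded subunits, for complexes I, III, IV and V (Mt-atp6 alone) in the 12 libraries; each point is 1 complex in 1 library and lines only join the points of 1 complex. The 4 complexes keep the same rank at the top and bottom: G.3 highest, M.6 second, N.2 lowest.

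In the test of model against normal livers, which asks what the diet changed, no member passed. The quasi-likelihood test of edgeR, fitted on all 12 libraries and adjusted over 12406 genes, called 0 genes at an adjusted p of 0.05 (0%). At an unadjusted p of 0.05 it held 616 genes (4.97%) and 1 member, Mt-nd4l. These counts moved with single libraries and, as given further below, with the scaling. There were 2562 of 12666 genes and 27 members without M2.1. Without G.3 there were 1225 of 12613 genes and 9 members, and without N.3 681 of 12721 genes and 8 members. Leaving out N.1, N.2 or M.6 gave 323, 278 or 354 genes and 0 members. The count over all genes thus moved as well. DESeq2 called 42 genes and limma-voom 0, none of them a member, and in the authors' deposited table of this comparison 53 genes but 0 of the 101 members had an adjusted p under 0.05. The fitted log2 fold changes of all 13 Mt- genes were above 0, and their median was 2.01. Mt-nd4l was at 2.49 ± 1.04 (SE; edgeR adjusted p = 0.861), Mt-cyb at 2.01 ± 1.09 and Mt-co1 at 1.79 ± 1.11, both with an edgeR adjusted p of 0.861. The median of the Mt- genes was 0.985 without M.6 and 2.77 without N.3, the extremes of leaving out 1 library, and without G.3 edgeR called 8 genes at an adjusted p of 0.05, none of them a member.

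Of the 72 nuclear-coded subunits, 54 had a positive and 18 a negative fold change, with a median of 0.33, against 53.7% positive and a median of 0.05 for all nuclear-coded genes tested. That median was -0.03 without M.5, so it rests on 1 liver. Complex I (30 of 35 positive, median 0.35) and complex V (11 of 14, 0.40) lay higher than complex IV (7 of 11, 0.31), complex III (4 of 8, 0.14) and complex II (2 of 4, 0.03), with no test of the difference. The 5 with the smallest p among the positive ones were Ndufb2, Atp5e, Ndufa5, Ndufb7 and Cox7b, with log2 fold changes of 0.77 to 0.89. Atp5e, the epsilon subunit of the ATP synthase head, was at 115, 155 and 272 CPM in the normal livers and at 486, 393 and 126 in M.5, M.6 and M2.1 (0.89 ± 0.49, SE; edgeR adjusted p = 0.861). The 5 nuclear-coded members on the negative side were the assembly factor Ndufaf1 and the subunits Uqcrc2, Ndufb6, Ndufa10 and Atp5a1, with -0.24 to -0.56.

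In arm D against the model, which asks whether didymin altered the diet's pattern, edgeR called 0 genes at an adjusted p of 0.05 (0%). It held 776 at an unadjusted p of 0.05 (6.26%), among them 0 members, but 1792 genes and 7 members without M2.1 and 1429 genes and 2 members without G.3. The gene count was 420 without M.6, 491 without D.7 and 326 without D.4. DESeq2 called 14 genes and limma-voom 0, with 0 members, and the authors' deposited table held 7 genes and 0 members. All 13 Mt- genes had a negative fold change, with a median of -1.49. Mt-nd4l was at -1.78 ± 1.01 (SE; edgeR adjusted p = 0.809), Mt-co1 at -1.48 ± 1.10 (edgeR adjusted p = 0.838) and Mt-cyb at -1.43 ± 1.07 (edgeR adjusted p = 0.840). Without M.6 the median was -0.449. This comparison shares the model livers with the one before and the one after, so opposite signs come in part from the same 3 libraries.

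The nuclear-coded subunits of arm D were spread around 0, with 33 positive and 39 negative and a median of -0.04, against -0.03 for all nuclear-coded genes. The smallest p among the positive ones belonged to Ndufa10, an accessory subunit of complex I. It was at 63.5, 46.9 and 62.0 CPM in M.5, M.6 and M2.1 and at 87.8, 74.1 and 75.6 in D.1, D.4 and D.7, and the groups did not overlap, but the difference of 0.46 ± 0.30 did not pass the test (SE; edgeR adjusted p = 0.811). Ndufb6, Sdhc, Cox6a1 and Cox7a2l came next, with 0.35 to 0.68. On the negative side were, among others, the subunits Ndufa5 (-0.69), Atp5j (-0.49) and Atp5i (-0.52) and the assembly factor Ndufaf4 (-0.37).

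In arm G against the model edgeR called 0 genes at an adjusted p of 0.05 (0%). It held 282 at an unadjusted p of 0.05 (2.27%), with 0 members. Without M2.1 it held 810 genes and 6 members, and without G.3 925 genes and 3 members. Leaving out G.1 or G.4 gave 368 or 360 genes and 2 members, and leaving out N.2 gave 233 genes and 1 member. DESeq2 called 5 genes and limma-voom 0, with 0 members. The authors' deposited table held 1 gene and 0 members. The Mt- genes had a median of 0.455, with 12 positive and Mt-nd1 negative, and the sign depended on single livers: the median was -1.87 without G.3 and -0.81 without both M.6 and G.3. Without M2.1 it was -0.07. Of the 72 nuclear-coded subunits 60 were negative, with a median of -0.245, against 48.9% positive and -0.01 for all nuclear-coded genes; without M.5 the median was 0.09. Complex I had 31 of 35 negative (median -0.32), complex II 3 of 4 (-0.23), complex III 7 of 8 (-0.07), complex IV 6 of 11 (-0.19) and complex V 13 of 14 (-0.24).

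Among the subunits with the smallest p in arm G were Atp5j, Ndufc2, Cox7b and Ndufs8, at -0.38 to -0.56, and the assembly factor Ndufaf5 at -0.55. On the other side Ndufb6 was at 0.48, Ndufa12 at 0.36 and the assembly factor Ndufaf1 at 0.35. Atp5j, a coupling subunit of the ATP synthase stalk, was at 198, 161 and 68.2 CPM in M.5, M.6 and M2.1 and at 103, 93.4 and 98.3 in G.1, G.3 and G.4 (-0.53 ± 0.39, SE; edgeR adjusted p = 0.9999). The 3 arm G livers lay between the lowest and the second lowest model liver.

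**Figure D5:**
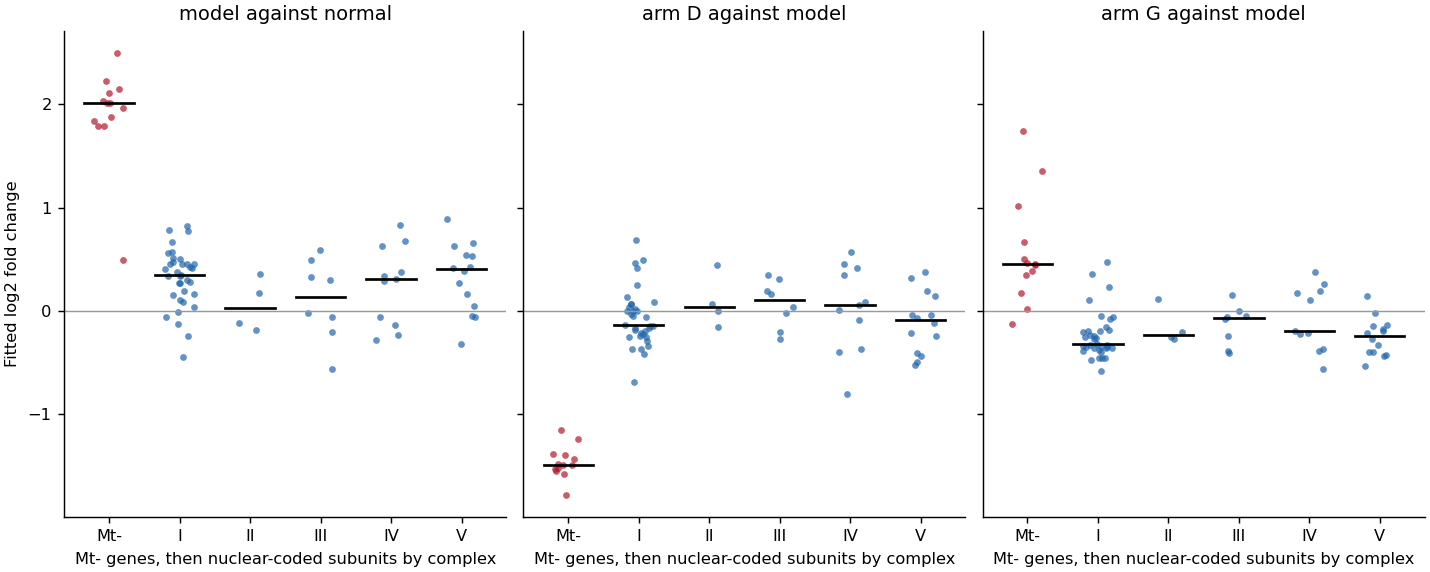
Fitted log2 fold changes of the 13 Mt- genes (red) and of the 72 nuclear-coded subunits by complex (blue) in 3 comparisons that share the model livers; each point is 1 gene and each black line a median. The Mt- medians are 2.01, -1.49 and 0.455, and no point passed the edgeR test.

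The 2 arms were also compared with each other and with the normal livers. In arm G against arm D, edgeR called 0 genes at an adjusted p of 0.05 (0%) and held 401 at an unadjusted p of 0.05 (3.23%), with 1 member, Mt-atp8. Its log2 fold change was 2.98 ± 0.95 (SE; edgeR adjusted p = 0.995), from 6 to 15 counts in arm D and 37, 111 and 18 in G.1, G.3 and G.4. Without G.3 no member had an unadjusted p under 0.05 and 190 genes did, while there were 7 members when G.1 or G.4 was left out, 5 for M2.1 and 2 for M.5, M.6, D.1 or N.3. The gene count was 820 without G.1, 890 without G.4, 562 without M2.1, 197 without D.7 and 155 without D.4. It was 360, 498, 378 and 362 without M.5, M.6, D.1 and N.3. DESeq2 called 5 genes and limma-voom 0, with 0 members. The Mt- median was 1.985 and turned to -0.41 without G.3. Ndufa10 was the nuclear-coded member with the smallest p, at -0.54 ± 0.30 (SE; edgeR adjusted p = 0.995).

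In arm D against normal, edgeR called 0 genes at an adjusted p of 0.05 (0%) and held 795 at an unadjusted p of 0.05 (6.41%), with 0 members, and 1 without G.3. The gene count was 1104 without G.3 and was lowest without D.4 (456), N.2 (464) and N.1 (511). DESeq2 called 83 genes and limma-voom 0, with 0 members. The Mt- median was 0.545 and was -0.33 without D.1. The nuclear-coded subunits had 64 of 72 positive with a median of 0.24, and -0.07 without D.1, and Ndufa13 had the smallest p (0.59 ± 0.32, SE; edgeR adjusted p = 0.880). In arm G against normal, edgeR called 0 genes at an adjusted p of 0.05 (0%) and held 814 at an unadjusted p of 0.05 (6.56%), with 6 members, all Mt- genes with positive values: Mt-nd4l, Mt-atp8, Mt-nd3, Mt-nd6, Mt-nd5 and Mt-cyb. The count of members was 1 without G.3 or without N.2 and 0 without N.1, and it was 14 without G.4, 13 without G.1, 11 without M2.1, 10 without N.3 and 4 without M.5 or D.7. The gene count ran from 365 without N.1 to 1333 without G.1. It was 408 without G.3, 378 without N.2, 1203 without G.4, 1152 without M2.1 and 918 without N.3. Leaving out M.5 or D.7 gave 749 or 644 genes. DESeq2 called 51 genes and limma-voom 0, with 0 members. Mt-nd4l was at 2.94 ± 1.06 and Mt-nd3 at 3.23 ± 1.35 (SE; edgeR adjusted p = 0.721 for both). The Mt- median was 2.48 with all libraries and 0.0854 without G.3, and Mt-nd3 was then at -0.06.

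Lists of genes around the pathway gave no call in any comparison: edgeR's adjusted p was above 0.05 for every gene of these lists. Of all nuclear-coded genes tested, 53.7% were positive in model against normal, with a median of 0.05. Of 70 mitochondrial ribosomal proteins tested, which build the ribosomes that translate the Mt- transcripts, 54 were positive there, with a median of 0.21. An edgeR unadjusted p under 0.05 was held by 3 of the 70, against 4.97% of all genes tested. The mean log2 CPM of the 70 was highest in D.1 (5.36) and M.5 (5.32), as for the nuclear-coded subunits. Of 27 genes for mitochondrial DNA upkeep, transcription and RNA handling, 17 were positive with a median of 0.21, and their mean was highest in M.6 (4.38) and G.3 (4.21). Fastkd1, named after its values were seen, which binds mitochondrial RNA, was at 35.1 CPM in M.6 and 44.8 in G.3, against 5.51 to 11.8 in the other 10. Of 33 other assembly factors 25 were positive (median 0.18), of 12 citrate cycle enzymes 6 (0.01), of 10 carriers and uncoupling proteins 4 (-0.05) and of 9 other electron carriers 6 (0.06).

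Among 12 regulators of mitochondrial genes tested, 7 were positive in model against normal, with a median of 0.12. The smallest p belonged to Ppargc1a, which codes PGC-1alpha, a coactivator of mitochondrial gene expression. It was at 5.61, 4.35 and 1.0 CPM in N.1, N.2 and N.3 and at 0.802, 0.220 and 0.795 in M.5, M.6 and M2.1. The model livers lay below all normal ones, N.3 was close to them, and the log2 fold change of -2.55 ± 0.66 did not pass (SE; edgeR adjusted p = 0.724). In the arms it was at 0.965, 1.13 and 1.27 CPM in D.1, D.4 and D.7 and at 0.696, 1.10 and 1.11 in G.1, G.3 and G.4, with 0.85 ± 0.66 in arm D against the model (SE; edgeR adjusted p = 0.842). The factors Nrf1 and Tfam, which act on nuclear and mitochondrial promoters, were at 7.77 to 13.9 CPM and at 25.0 to 50.9 CPM over the 12 livers, with Nrf1 highest in M.6 and Tfam lowest in G.3.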

How the data were processed

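Rat liver RNA of 12 libraries was sequenced by the authors, who deposited whole-number read counts per gene in 3 tables, each with a log2 fold change and an adjusted p-value of its own, per the file headers. DESeq2 and the build mm9 (a mouse build, although the animals are rats) are listed in the submitters' processing notes. For the aligner, counter, annotation and strand use: not given in the sources used here. The count columns were joined on the gene symbol, and the model libraries had identical counts wherever tables shared them. Another 36 per-sample columns were not used.

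Library size was the count of nuclear-coded genes times the TMM factor of these genes, and Mt- genes used the same sizes. Low genes were removed with filterByExpr. The quasi-likelihood test of edgeR 4.0.16 (R 4.3.3) was fitted on all 4 groups, with Benjamini-Hochberg adjustment over 12406 genes, a threshold of 0.05 and a prior count of 2 for log2 CPM. It was first run on simulated data with large planted changes in nuclear-coded genes and less spread than here. That run checked the code and cannot show its power for these data. Alternatives were DESeq2 1.42.0, limma-voom 3.58.1, other scalings, no filter, fits of 2 groups and leaving out libraries. Named were all Mt- genes, complex II, isoform sets, up to 5 nuclear-coded members per direction with the smallest p, and up to 2 genes of each pathway list; genes named for another reason were chosen after their values were seen. The members, lists and promoter motifs were chosen with earlier results of these data known. RefSeq promoter windows are of GRCr8. The values of 1 member are not reported here.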

Additional observations from a re-analysis of the deposited data

How the results depend on the processing

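No member passed an adjusted p of 0.05 under any alternative. Over all genes edgeR called 0 in each comparison, and DESeq2 called 42 in model against normal, 14 in arm D against model, 5 in arm G against model, 5 in arm G against arm D, 83 in arm D against normal and 51 in arm G against normal. Without the filter 1 gene was called in arm G against arm D, in the fit of 2 groups 2 in arm D against normal, and without M.6 and G.3 together 1 in model against normal. Leaving out 1 library gave 0 to 8 calls in model against normal (8 without G.3, 1 without M.6 and 1 without M2.1), 0 to 1 in arm G against arm D (without G.4) and 0 to 1 in arm G against normal (without N.3). The cause was not tested.

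The median of the Mt- genes ranged, with 1 library left out, from -1.87 to 1.57 in arm G against model, from -0.409 to 2.70 in arm G against arm D and from 0.0854 to 3.05 in arm G against normal, each lowest without G.3. Without M.6 and G.3 together it was -0.405 in arm G against arm D and 0.0859 in arm G against normal. The log2 fold change of Mt-nd3 in arm G against normal turned to -0.0649 without G.3 and to -0.0606 without M.6 and G.3 together. These were the only 2 of 800 alternatives of the 40 gene fold changes followed here with the opposite direction. The nuclear-coded members among the 40 were picked for the smallest p in these same libraries, so a kept direction is not independent support. The 40 leave out many Mt- fold changes, and the Mt- medians of arm G against model and against arm D changed sign without G.3. The highest value of Mt-nd3 with 1 library left out was 4.37, without N.3. The median of the nuclear-coded subunits also changed sign: in arm D against model to 0.247 without M.5, 0.0692 without D.4, 0.0943 without D.7 and 0.0845 on plain counts of all genes; in arm G against arm D to 0.0905 without D.1 and 0.0039 without M.6 and G.3; in arm G against normal to -0.124 without N.1, -0.0465 without G.1, -0.0568 without G.4 and -0.0599 on plain counts of all genes. As a log2 ratio of summed counts, Mt- to nuclear-coded subunits were at 2.81 in the normal group and 3.04 in arm D. On plain nuclear-coded counts the median of all genes was 0.276 in model against normal (0.0466 with TMM) and 0.278 in arm G against normal (0.0209 with TMM). On that scale 684 genes, 6 of them members, had an edgeR unadjusted p under 0.05 in model against normal. These numbers were 477 and 6 in arm G against arm D and 1170 and 12 in arm G against normal. They were 692 and 1 in arm D against normal. Against the model, they were 560 and 0 in arm D and 242 and 0 in arm G.

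No paired analysis was possible because the columns carry names of their own, not the replicate numbers of the labels. With 3 libraries a group and an SD between libraries of 1.51 for the Mt- genes on the log2 scale, the groups' differences could not be told from the spread. G.3 had the fewest nuclear-coded counts, so its low members have the widest counting error.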
